A study of Mus musculus with 10 samples.

Results

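The 10 chemokine ligands described here are genes whose proteins T cells are known to secrete or display, or that guide T cells, with Ccl5 at their head. They were chosen by name (Ccl5, Ccl1, Ccl3, Ccl4, Ccl9, Ccl17, Ccl22, Xcl1, Cxcl10 and Cxcl16), but with earlier results of these data known. They are 10 of the 19048 genes that both array tables hold. Genes whose mean log2 signal reached the 30th percentile in both tables were tested. They number 12485, and 9 of the ligands are among them. Ccl22 lay below that level in the gene-level table and is given by its values alone.

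RNA came from CD3+ T cells of the spleens of male Balb/C mice that were 12 weeks old. Cells of KLF13 knockout mice (KO1 to KO5) were set against those of wild-type mice (WT1 to WT5), and the sample titles number them as replicates. The titles do not say whether each replicate came from another mouse. All cells of both genotypes had been activated in culture for 4 days with plate-bound antibody to CD3 and soluble antibody to CD28, and no unactivated cells were among the samples. The labels call the knockout only KLF13 KO, and the sources used here do not say which exons it removes or whether it acts in all cells of the mouse. Replicates 1 to 3 of each genotype are in an exon-level table, with several probe sets per gene, and replicates 4 and 5 are in a gene-level table with 1 probe set for each of the 10 ligands.

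Chemokines are small secreted proteins that direct the migration of leukocytes through G protein-coupled receptors. Activated T cells make several of them at different times. Ccl3, Ccl4 and Xcl1 are known as early products of activation and of killer cells, while Ccl5 is known to come on days later and to be stored in the granules of effector and memory CD8 T cells. KLF13, a zinc-finger transcription factor of the Krüppel-like family, is known in human T cells for binding a CTCCC element of the CCL5 promoter and for its part in that late expression.

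The values are log2 RMA signals (robust multi-array average), so a difference of 1 is a change of 2-fold. The median signal was 5.23 in KO1 and 5.21 in WT1 but 6.25 to 6.43 in the remaining exon-level arrays, so differences were taken within replicate 1, within replicates 2 and 3, and within replicates 4 and 5, called scale sets here. KO3 stood apart from the other arrays of its table, with correlations of 0.796 to 0.848 with them over all 241576 exon-level probe sets. The gene-level arrays correlated at 0.989 to 0.992 with each other over all 35556 gene-level probe sets, a different kind of feature. In replicates 2 and 3 the brightest 5% of genes were lower in the knockout arrays by a median of 0.78 on the log2 scale, against 0.09 in replicates 4 and 5. The mean level of 7 T cell markers was 9.48 in KO1 against 9.83 in WT1, 9.96 to 10.00 in KO2 and KO3 against 10.78 to 10.79 in WT2 and WT3, and 10.19 to 10.21 in KO4 and KO5 against 10.12 to 10.34 in WT4 and WT5. The targeted gene Klf13 read 5.41, 6.16, 6.07, 6.21 and 6.46 in KO1 to KO5, against 6.03, 6.95, 6.89, 7.21 and 7.54 in WT1 to WT5, and each knockout array was below the wild type within its set. Its difference over all arrays was -0.86 ± 0.12 (SE, limma with scale sets as block, adjusted p = 0.0126), with adjusted p between 0.0507 and 0.0689 when WT2, WT3, WT4, KO4 or KO5 was left out.

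Upstream sequence is shown for 3 ligands because the results below turn on them: Cxcl10 and Ccl3 had the smallest p among the ligands over all arrays, and Xcl1 had the largest difference among them in the gene-level table. RefSeq windows of GRCm38.p6 matched 7 of the 10 ligands, and Ccl5, Ccl4 and Cxcl16 were not among them. Each line gives the 250 bases before the transcription start on the gene's strand, 5′ to 3′, and capitals mark CACCC or CTCCC on either strand.
Cxcl10: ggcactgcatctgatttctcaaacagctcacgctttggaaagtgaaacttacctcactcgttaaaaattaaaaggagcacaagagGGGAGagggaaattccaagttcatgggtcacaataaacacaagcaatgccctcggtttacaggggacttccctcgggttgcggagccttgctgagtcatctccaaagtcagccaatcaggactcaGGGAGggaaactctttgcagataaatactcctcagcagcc
Ccl3: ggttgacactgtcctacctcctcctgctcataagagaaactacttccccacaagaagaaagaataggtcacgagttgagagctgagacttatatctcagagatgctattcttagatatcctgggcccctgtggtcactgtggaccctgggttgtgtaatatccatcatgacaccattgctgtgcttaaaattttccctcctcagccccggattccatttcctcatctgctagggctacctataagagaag
Xcl1: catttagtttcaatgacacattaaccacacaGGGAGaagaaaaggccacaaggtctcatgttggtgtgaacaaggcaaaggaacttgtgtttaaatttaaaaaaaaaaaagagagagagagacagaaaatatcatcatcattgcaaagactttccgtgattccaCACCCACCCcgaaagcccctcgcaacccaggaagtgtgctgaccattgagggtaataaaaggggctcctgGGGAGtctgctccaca

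The windows lie on the minus strand at chr5:92348890-92349139 for Cxcl10, chr11:83649379-83649628 for Ccl3 and chr1:164935523-164935772 for Xcl1. The Cxcl10 window held CTCCC at 165 and 40 bases before the start, on the opposite strand, and the Xcl1 window held 2 CACCC, which overlap, and 2 CTCCC. The Ccl3 window held neither. Of the 7 windows 6 held CACCC or CTCCC, as did 79.9% of the 32851 promoter windows in the same table, so these short motifs are common.

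Ccl5, a chemoattractant of T cells and monocytes, was lower in some arrays without KLF13 and higher in others. In the exon-level table it read 6.99 in KO1 against 8.14 in WT1, and 7.93 and 8.08 in KO2 and KO3 against 8.40 and 8.37 in WT2 and WT3. In the gene-level table it read 9.11 and 9.08 in KO4 and KO5, against 8.52 and 8.65 in WT4 and WT5. Knockout arrays were thus below all wild-type arrays of the same set in replicates 1 to 3 and above both in replicates 4 and 5. The differences, knockout minus wild type, were -1.15 for replicate 1 (0.451 of the wild-type level), -0.38 for replicates 2 and 3 (0.767) and 0.50 for replicates 4 and 5 (1.42-fold). With quantile normalization within each table they were -1.11, -0.17 and 0.54.

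Over all arrays the difference of Ccl5 was -0.18 ± 0.21 (SE, 5 knockout and 5 wild-type arrays, limma adjusted p = 0.634), with a 95% interval of -0.64 to 0.28. It turned to 0.06 when KO1 or WT1 was left out, which removes replicate 1 from the contrast. The exact permutation test of the mean difference over the 3 scale sets, -0.34, gave a 2-sided p = 0.667, where the smallest p that its 72 arrangements allow is 0.0278. In the exon-level table alone the difference was -0.64 ± 0.22 (adjusted p = 0.582). Without KO3 it was -0.75 ± 0.15 and passed (adjusted p = 0.0226), as 3.41% of all genes then did. In the gene-level table alone it was 0.50 ± 0.12 (SE, 2 arrays against 2, limma adjusted p = 0.0702), which passed with quantile normalization (0.54, adjusted p = 0.0429) and with a mean trend and robust variances (adjusted p = 0.0254). Those settings called 3.35% and 4.14% of all genes.

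The difference between the tables was tested as an interaction. For Ccl5 the gene-level difference lay above the exon-level difference by 1.14 ± 0.28 (SE, 95% interval 0.52 to 1.76, limma adjusted p = 0.872). The interaction called 0 of the 9 ligands tested and 0% of all genes, with 2 of 9 and 5.27% at an unadjusted p under 0.05, Ccl5 and Xcl1 being the 2. Of the 12485 genes tested 16, or 0.128%, had an unadjusted p at or under that of Ccl5. Without KO3 the value was 1.26 ± 0.21 and passed (adjusted p = 0.0169), as 0.969% of all genes then did. A pattern of no overlap, below in both exon-level scale sets and above in the gene-level table, was shown by 1 of the 9 ligands tested, which was Ccl5, and by 3.64% of all genes.

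The tables differ in the level of their probe sets (exon or gene), in samples and in normalization, and these cannot be told apart. The mean level of Cd8a, Cd8b1, Runx3 and Eomes was 8.00 in KO1 against 8.11 in WT1, 8.40 to 8.58 in KO2 and KO3 against 8.70 to 8.74 in WT2 and WT3, and 8.90 to 8.93 in KO4 and KO5 against 8.60 to 8.78 in WT4 and WT5. By gene the differences in replicates 2 and 3 were -0.75 for Cd8a, -0.13 for Eomes, -0.05 for Cd8b1 and 0.00 for Runx3, and the T cell markers, with a median of -0.67, were lower in those arrays too. In replicates 4 and 5 they were 0.33 for Cd8a, 0.28 for Eomes, 0.21 for Cd8b1 and 0.08 for Runx3 (limma adjusted p of 0.298 or above). The median of the T cell markers was 0.02 there. The part of these transcripts in the Ccl5 values was not tested. None of the 5 NK cell markers reached the signal needed for testing in both tables. In RNA from whole cultures, fewer cells that make a transcript and less of it per cell cannot be told apart.

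**Figure D1:**
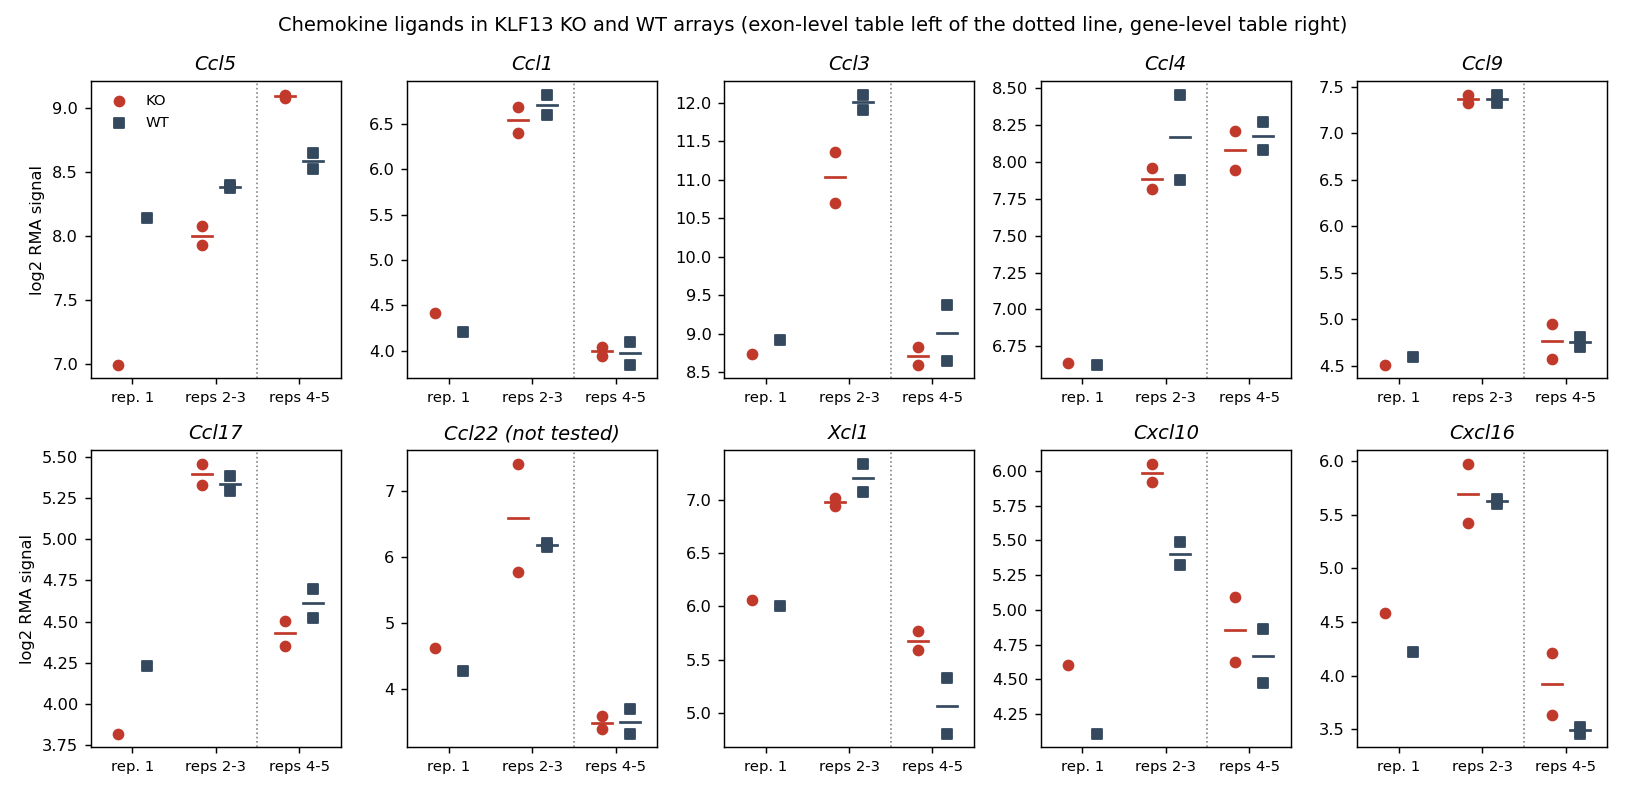
Log2 RMA signal of each of the 10 ligands in every array, by scale set, with KO arrays as red circles to the left of WT arrays as dark squares and a line at the mean of 2 arrays. Ccl5 lies lower in KO in replicate 1 and in replicates 2 and 3 and higher in replicates 4 and 5, while Cxcl10 is higher in KO throughout the exon-level table, left of the dotted line.

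The exon-level probe sets split Ccl5 further. Probe sets 10389208, 10389209, 10389210 and 10389211 were lower in every knockout array than in the matching wild-type arrays, with differences of -1.03 ± 0.29, -0.97 ± 0.32, -1.09 ± 0.30 and -1.25 ± 0.27 (SE, limma over all exon-level probe sets, adjusted p = 0.743 for each). Of all probe sets tested 20.8% were likewise lower in every knockout array. Probe set 10389211, for example, read 7.61, 7.59 and 7.44 in KO1 to KO3, against 9.11, 8.50 and 8.79 in WT1 to WT3. The other two, 10389212 and 10389213, differed by 0.08 and 0.43. Both were lower in KO1, at 7.45 against 8.00 in WT1 and at 6.17 against 6.77 in WT1, but high in KO3, at 9.48 against 8.71 and 8.49 in WT2 and WT3 and at 9.25 against 7.83 and 7.57. The small difference of Ccl5 in replicates 2 and 3 is thus a mean of 4 probe sets that were lower in both knockout arrays and 2 that were not. The labels name a 3′ labelling kit, which primes at the poly(A) tail, while the table reports exon-level probe sets, and what this does to single probe sets was not tested. Probe sets of 1 gene share its RNA and its arrays and are not replicates of each other.

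Of the 55 exon-level probe sets of the 10 ligands 45 were bright enough to be tested, and 0 passed the limma test, as did 0% of the 169103 probe sets tested. At an unadjusted p under 0.05 there were 5 lower and 1 higher among the 45, and 4.67% of all probe sets. The 5 were the 4 named Ccl5 probe sets and 10389234 of Ccl3, and the 1 was 10387898 of Cxcl16.

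**Figure D2:**
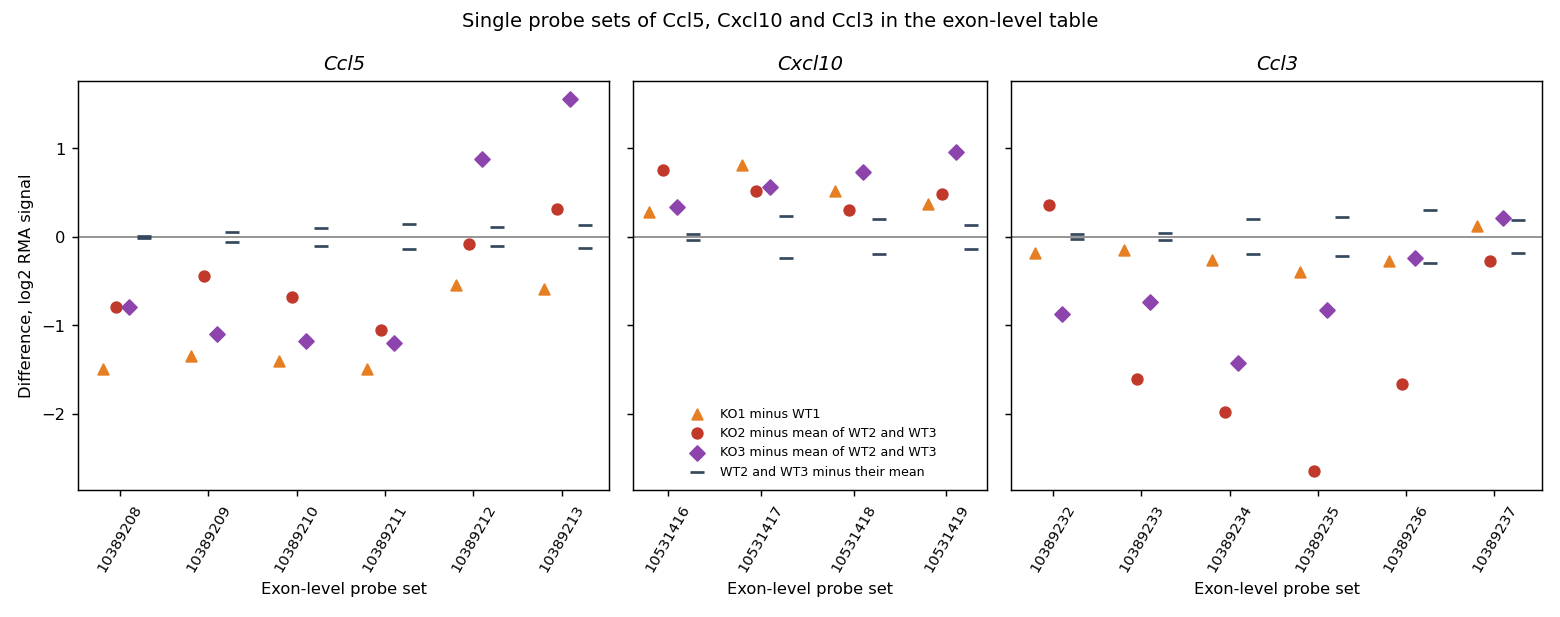
KO minus WT difference in log2 RMA signal for each exon-level probe set of Ccl5, Cxcl10 and Ccl3, with KO1 set against WT1 (triangles), KO2 (circles) and KO3 (diamonds) set against the mean of WT2 and WT3, and dashes for WT2 and WT3 around that mean. In Ccl5 4 of 6 probe sets lie below 0 in all 3 knockout arrays and 2 lie well above 0 in KO3, and in Cxcl10 all 4 lie above 0.

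Over all arrays 0 of the 9 ligands tested passed (limma with scale sets as block), where 0.585% of all genes did, 12 higher and 61 lower. At an unadjusted p under 0.05 there were 2 of 9, Ccl3 lower and Cxcl10 higher, beside 14.9% of all genes. The median difference of the 9 ligands was -0.02, beside -0.10 for all genes tested, and 6 of 9 were lower, beside 63.5% of all genes. Fitted alone, the gene-level arrays called 0 of 9, beside 2.72% of all genes, with 3 of 9 and 16% at an unadjusted p under 0.05. The 3 were Ccl5, Xcl1 and Cxcl16, all higher, and Cxcl16 reached the level needed for testing there only through its knockout arrays. The exon-level arrays fitted alone called 0 of 9, beside 0% of all genes, with 3 of 9 and 8.16% at an unadjusted p under 0.05.

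**Figure D3:**
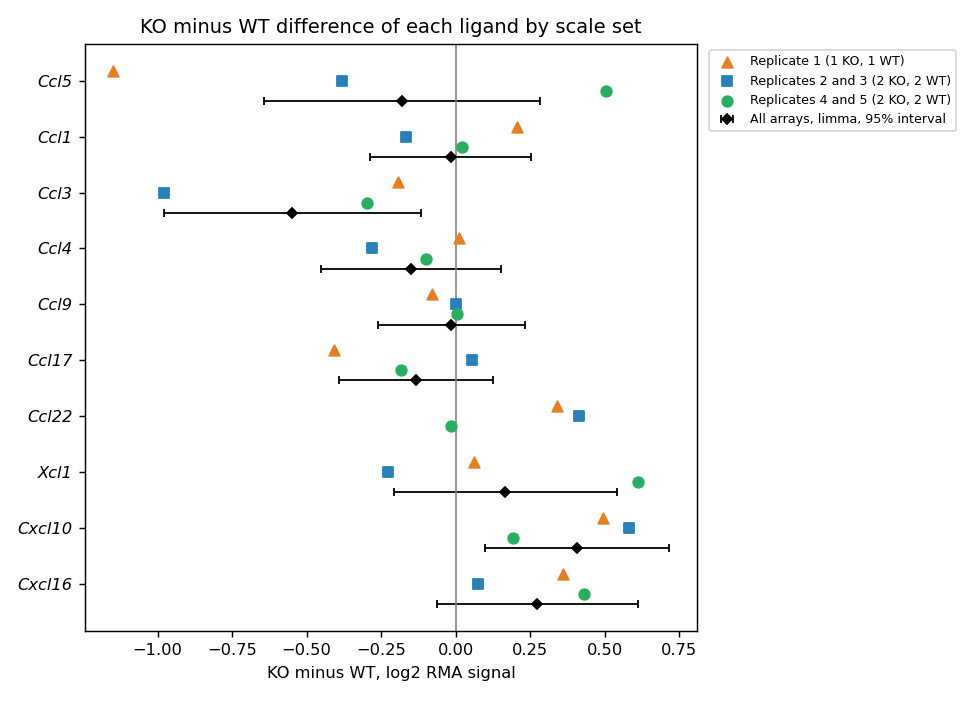
KO minus WT difference in log2 RMA signal for each of the 10 ligands (rows) in replicate 1 (triangles), replicates 2 and 3 (squares) and replicates 4 and 5 (circles), with the limma estimate over all arrays and its 95% interval as black diamonds. Ccl5 spans -1.15 to 0.50 across the scale sets, and the estimates over all arrays range from -0.55 for Ccl3 to 0.41 for Cxcl10.

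Ccl3 and Ccl4 are the macrophage inflammatory proteins 1α and 1β, neighbours on chromosome 11. Ccl3 read 8.73 in KO1 against 8.92 in WT1, and 10.70 and 11.36 in KO2 and KO3 against 11.91 and 12.11 in WT2 and WT3. On the gene-level arrays it read 8.83 and 8.60 in KO4 and KO5, against 9.37 and 8.65 in WT4 and WT5. All exon-level knockout arrays lay below their wild-type arrays, as was true of 2 of the 9 ligands, Ccl5 being the other, and of 26.5% of all genes, while the gene-level arrays overlapped. The differences were -0.19, -0.98 (0.508 of the wild-type level) and -0.30 in the 3 scale sets, and -0.55 ± 0.20 over all arrays (limma adjusted p = 0.259).

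All 6 probe sets of Ccl3 were lower in the mean of the knockout arrays of replicates 2 and 3, 3 of them without overlap, beside 35.7% of all probe sets tested. Probe set 10389235 read 11.69 and 13.50 in KO2 and KO3 against 14.11 and 14.56 in WT2 and WT3. These are bright signals, and in replicates 2 and 3 the median difference over the brightest 5% of genes was -0.78. With quantile normalization within each table the difference of Ccl3 in replicates 2 and 3 was -0.39 and that over all arrays was -0.29. Its gene-level difference alone was -0.30 ± 0.21 (adjusted p = 0.557). That value passed without WT5 (-0.66, adjusted p = 0.0419), as 4.24% of all genes then did, and was 0.06 without WT4.

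Ccl4 differed little. It read 6.64 in KO1 against 6.63 in WT1, and 7.96 and 7.81 in KO2 and KO3 against 7.88 and 8.46 in WT2 and WT3. On the gene-level arrays it read 8.21 and 7.94 in KO4 and KO5 against 8.27 and 8.08 in WT4 and WT5. The groups overlapped in replicates 2 and 3 and in replicates 4 and 5, and the difference over all arrays was -0.15 ± 0.14 (limma adjusted p = 0.562, 95% interval -0.45 to 0.15).

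Xcl1, or lymphotactin, is a product of activated CD8 T cells and NK cells that attracts dendritic cells carrying Xcr1. It read 6.07 in KO1 against 6.00 in WT1, and 7.02 and 6.95 in KO2 and KO3 against 7.08 and 7.34 in WT2 and WT3. Its gene-level values were 5.77 and 5.59 in KO4 and KO5, against 5.33 and 4.80 in WT4 and WT5, so both knockout arrays were above both wild-type arrays there. In replicates 4 and 5 this was true of 3 of the 9 ligands tested (Ccl5, Xcl1 and Cxcl16) and of 20.3% of all genes. Cxcl16 reached the level needed for testing in the gene-level table only through its knockout arrays. Both knockout arrays of replicates 2 and 3 were below both wild-type arrays for Xcl1, as for 43.1% of all genes. The gene-level difference was 0.61 ± 0.18 (1.53-fold, limma adjusted p = 0.115), which without WT4 was 0.87 and passed (adjusted p = 0.0156), as 2.62% of all genes then did. Over all arrays it was 0.17 ± 0.17 (adjusted p = 0.594).

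Ccl1, a ligand of Ccr8 made by activated T cells, and Ccl9, which acts on Ccr1 in mice, showed the smallest differences of the 9. Ccl1 read 4.42, 6.69, 6.40, 3.94 and 4.04 in KO1 to KO5, against 4.21, 6.83, 6.60, 4.10 and 3.85 in WT1 to WT5. KO1 was above WT1, and the groups overlapped in both other scale sets. Ccl9 read 4.51, 7.41, 7.32, 4.57 and 4.95 in KO1 to KO5, against 4.59, 7.32, 7.41, 4.70 and 4.81 in WT1 to WT5, with overlap in the same sets. Over all arrays the differences were -0.02 ± 0.12 for Ccl1 (95% interval -0.29 to 0.25) and -0.01 ± 0.11 for Ccl9 (-0.26 to 0.23), and their signs turned under quantile normalization, to 0.02 and 0.04, and on subtracting each array's median, to 0.01 for each.

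Ccl17 and Ccl22 are ligands of Ccr4, a receptor of Th2, regulatory and skin-homing T cells, and are made mostly by dendritic cells and also by activated T cells. Ccl17 read 3.82 in KO1 against 4.23 in WT1, and 5.33 and 5.46 in KO2 and KO3 against 5.29 and 5.38 in WT2 and WT3. Its gene-level values were 4.35 and 4.50 in KO4 and KO5 against 4.70 and 4.52 in WT4 and WT5. KO1 was below WT1 and the groups overlapped in replicates 2 and 3. Ccl17 was the 1 ligand tested whose gene-level knockout arrays both lay below both wild-type arrays, beside 26% of all genes, and its difference over all arrays was -0.13 ± 0.12 (limma adjusted p = 0.544). Ccl22 read 4.61 in KO1 against 4.27 in WT1, and 7.42 and 5.77 in KO2 and KO3 against 6.15 and 6.22 in WT2 and WT3. The gene-level arrays read 3.39 and 3.59 in KO4 and KO5 against 3.69 and 3.32 in WT4 and WT5. Its groups overlapped in both of the larger scale sets.

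The high value of Ccl22 in KO2 came from 1 of its 6 exon-level probe sets. Probe set 10574219 read 14.12 in KO2, beside 3.26 and 4.60 in KO1 and KO3 and 2.34, 4.88 and 4.78 in WT1 to WT3. Without it the difference in replicates 2 and 3 was -0.41 in place of 0.41.

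Cxcl10, an interferon-induced ligand of Cxcr3, was the ligand most often higher without KLF13 in the exon-level table. It read 4.60 in KO1 against 4.11 in WT1, and 5.92 and 6.05 in KO2 and KO3 against 5.32 and 5.49 in WT2 and WT3. The gene-level arrays read 4.63 and 5.09 in KO4 and KO5, against 4.86 and 4.47 in WT4 and WT5, and the groups overlapped. It was the 1 of 9 ligands above in both exon-level scale sets, beside 6.49% of all genes, and each of its 4 exon-level probe sets showed the same, beside 5.6% of all probe sets tested. The differences were 0.49, 0.58 and 0.19 in the 3 scale sets. Over all arrays the difference was 0.41 ± 0.14 (limma adjusted p = 0.252) and in the exon-level table alone 0.55 ± 0.17 (adjusted p = 0.580), which without KO3 was 0.51 ± 0.12 and passed (adjusted p = 0.0428), as 3.41% of all genes then did.

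Cxcl16 is made as a membrane protein that can be shed, and binds Cxcr6 on effector T cells. It read 4.58 in KO1 against 4.22 in WT1, and 5.42 and 5.98 in KO2 and KO3 against 5.60 and 5.65 in WT2 and WT3. Its gene-level values were 3.63 and 4.21 in KO4 and KO5 against 3.46 and 3.52 in WT4 and WT5. The knockout arrays were higher in replicate 1 and in replicates 4 and 5, and the groups overlapped in replicates 2 and 3. The level needed for testing in the gene-level table was a mean of 3.54. Both wild-type arrays lay below it, so Cxcl16 was tested only through the knockout arrays, where it was higher. The difference was 0.27 ± 0.15 over all arrays (limma adjusted p = 0.405) and 0.43 ± 0.18 in the gene-level table alone (adjusted p = 0.288). Its 10 exon-level probe sets ranged from -1.56 to 1.03 in replicates 2 and 3, and the lowest of them, 10387900, read 5.34 and 10.00 in KO2 and KO3 against 9.16 and 9.29 in WT2 and WT3.

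Cells other than T cells are known to make Ccl9, Ccl17, Ccl22, Cxcl10 and Cxcl16. The mean level of 13 markers of myeloid and dendritic cells was 3.94 in KO1 against 3.95 in WT1, 5.28 to 5.33 in KO2 and KO3 against 5.01 to 5.06 in WT2 and WT3, and 4.01 to 4.10 in KO4 and KO5 against 3.93 to 3.98 in WT4 and WT5. It was higher in the knockout arrays of both larger scale sets, as were the mean levels of the B cell list and the stromal and endothelial cell list. Among the 6 myeloid and dendritic markers tested the median difference was 0.13 in replicates 2 and 3 and -0.02 in replicates 4 and 5. The part of the myeloid and dendritic markers in the values of these ligands was not tested. Lyz2, Cd14, Adgre1, Itgam and Clec9a were among the 7 of these markers below the level needed for testing.

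Ccl5 was then set against each other ligand within the same arrays, as the difference of their knockout minus wild-type differences. Over all arrays 0 of the 8 ligands with a test differed from Ccl5 (limma on log2 Ccl5 minus log2 gene, adjusted over all genes), beside 0.0961% of all genes, with 0 of 8 and 1.75% at an unadjusted p under 0.05. Limma gave each ligand the same pooled standard error of 0.31, and the adjusted p rounded to 1 for each. The values ran from -0.59 for Cxcl10 (95% interval -1.19 to 0.02) to 0.37 for Ccl3 (-0.24 to 0.97). That of Xcl1 was -0.35 (-0.95 to 0.26), that of Ccl4 was -0.03 (-0.64 to 0.57) and that of Ccl17 was -0.05 (-0.65 to 0.56). Intervals this wide reach well past 0 on both sides for most ligands, and do not show that the ligands behave alike.

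Within the gene-level table Ccl5 lay above 5 of the 8 ligands, by 0.48 for Ccl1, 0.80 for Ccl3, 0.60 for Ccl4, 0.50 for Ccl9 and 0.69 for Ccl17 (limma adjusted p between 0.004 and 0.017). It did not differ by the test from Xcl1 (-0.11, 95% interval -0.54 to 0.32), Cxcl16 (0.07, -0.34 to 0.48) or Cxcl10 (0.31, -0.13 to 0.76). Cxcl16 reached the level needed for testing in that table only through its knockout arrays, where it was higher. The same test called 81.4% of all genes, and 83.7% had an unadjusted p under 0.05, so a difference from Ccl5 there is no mark of these ligands. Among exon-level arrays 0 of 8 passed, beside 0.192% of all genes, and the values ran from -1.19 for Cxcl10 (-1.94 to -0.44) to 0.08 for Ccl3 (-0.67 to 0.83), with 2 of 8 and 23.6% of all genes at an unadjusted p under 0.05.

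**Figure D4:**
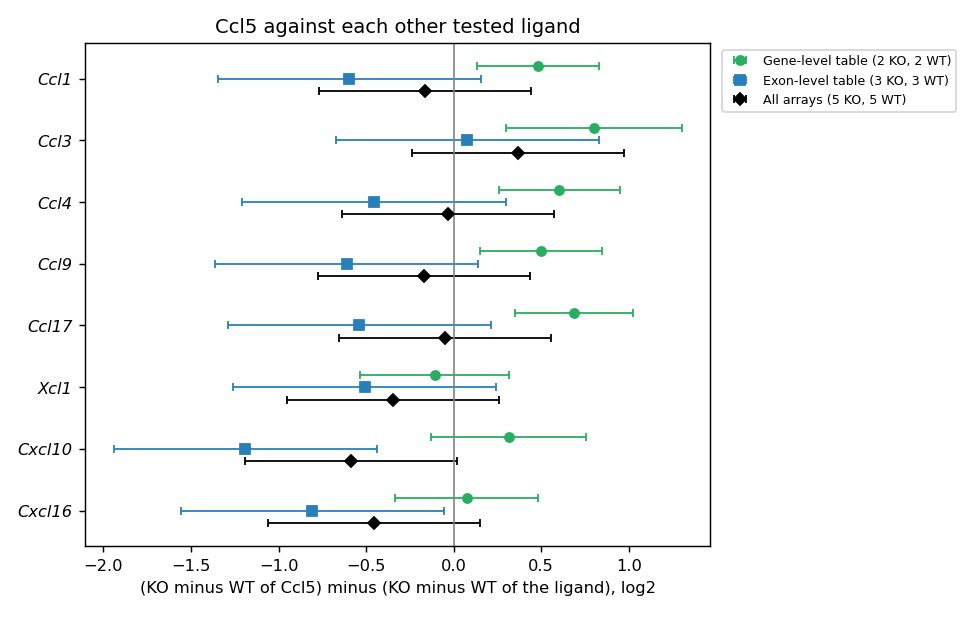
KO minus WT difference of Ccl5 minus that of each other tested ligand (rows), in log2 units, with 95% intervals from limma, in the gene-level table (circles), the exon-level table (squares) and all arrays (diamonds). Values in the gene-level table are above 0 for every ligand but Xcl1, and all intervals over all arrays include 0.

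Among the other genes of the pathway, 8 of 26 further chemokine ligands were bright enough to be tested over all arrays. Of these 0 passed (limma), beside 0.585% of all genes. At an unadjusted p under 0.05 there were 2, both higher, beside 14.9% of all genes in either direction. Their median difference was 0.20, beside -0.10 for all genes, and 7 of 8 were higher and 1 lower, where 63.5% of all genes were lower. Their exon-level signals ranked between percentiles 41.5 and 67.1. The median over all genes moved with signal, from 0.01 with no filter to -0.18 with a 50th percentile filter, so -0.10 is not matched to their level. Ccl6, which acts on Ccr1 in mice, had the smallest p of the 8, with a difference of 0.51 ± 0.17 (adjusted p = 0.232).

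Of 22 chemokine receptors 10 were tested, with a median difference of -0.47 beside -0.10 for all genes. Of the 10 receptors 6 were lower, beside 63.5% of all genes, and 4 higher, and 1 passed, beside 0.585% of all genes. Ccr8, the receptor of Ccl1, read 8.39, 8.00, 7.63, 7.35 and 7.42 in KO1 to KO5, against 8.63, 8.43, 8.75, 8.60 and 8.42 in WT1 to WT5. Each knockout array was below its wild-type arrays, and the level fell by 0.81 ± 0.15 on the log2 scale (limma adjusted p = 0.0470). That call is marginal: 15 of 21 alternatives ended it, with quantile normalization within each table (adjusted p = 0.0738) and the omission of KO4 (0.185) among them, and none turned its sign. Gene-level arrays alone gave -1.12 with an adjusted p of 0.00465.

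The receptors of 3 further ligands were looked up after their values had been seen. Ccr4, the receptor of Ccl17 and Ccl22, read 7.36, 6.81, 6.29, 5.94 and 6.11 in KO1 to KO5, against 7.88, 8.06, 8.14, 6.55 and 6.65 in WT1 to WT5, a difference of -0.95 ± 0.19 (limma adjusted p = 0.0540). Cxcr3, the receptor of Cxcl10, read 5.80, 6.89, 6.44, 6.70 and 7.09 in KO1 to KO5, against 6.59, 7.97, 7.95, 7.46 and 7.22 in WT1 to WT5, a difference of -0.85 ± 0.17 (adjusted p = 0.0556). Cxcr6, the receptor of Cxcl16, differed by -0.75 ± 0.17 (adjusted p = 0.101). Knockout arrays were below wild-type arrays of the same set for each of the 3 and for Ccr8, as for 10.8% of all genes. Without KO3 each of the 3 passed, as 2.9% of all genes then did, with adjusted p of 0.00705 for Ccr4, 0.0109 for Cxcr3 and 0.0298 for Cxcr6.

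Of 21 genes known to act on the Ccl5 promoter or with KLF13, 19 were tested and 1 passed, the targeted gene Klf13. The share called over all genes was 0.585%. Their median difference was -0.17, beside -0.10 for all genes, and 15 of 19 were lower, beside 63.5% of all genes. By scale set their median was -0.08 for replicate 1, -0.62 for replicates 2 and 3 and 0.04 for replicates 4 and 5, and that of all genes was -0.02, -0.22 and -0.01. The 19 ranked at percentile 57.7 or above by exon-level signal and 62.8 or above by gene-level signal. Over all arrays the median of all genes was -0.18 with a 50th percentile filter. The values given for all genes are thus not matched to the level of these 19.

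The genes whose levels ran most like those of Ccl5 were ranked by Pearson's r over the 10 arrays after the mean of each scale set was subtracted. The highest were Dvl1, a transducer of Wnt signals (0.98), Cbr1 (0.90), Ccny (0.90), Smad3, a transducer of TGF-β signals (0.89), and Clstn1 (0.89), and the lowest were Rtf2 (-0.98), Kiss1r (-0.96) and Zfp566 (-0.93). Among the other tested ligands r ran from -0.50 for Cxcl10 to 0.39 for Xcl1. These are extremes of 12484 values over 10 arrays that share their normalization, and are given as a description.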

How the data were processed

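Arrays were measured in 5 KLF13 knockout and 5 wild-type samples. The deposited values are log2 signals that the authors made with RMA, according to the submitters' processing notes, and RNA was labelled from oligo(dT) primers, per the labels' protocols. The version of RMA, the genome build and whether all exon-level columns were normalized together are unknown here. The tables were normalized separately and no test mixes their levels. No column was left without a sample, and the arrays' number limits the precision of every value.

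The exon-level table held 241576 probe sets, of which 212097 named 1 gene, 4475 several and 25004 none. The gene-level table held 35556 probe sets, and these numbers were 21789, 1621 and 12146. Names come from the platform annotation, and old symbols were replaced by those of RefSeq (GRCm38.p6). Probe sets that name several genes were left out. Exon-level values are means of log2 over a gene's probe sets, and gene-level values are those of the brightest probe set.

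Fits used R 4.3.3 and limma 3.58.1, with lmFit and eBayes. Tests were 2-sided, a call is a p under 0.05 after Benjamini-Hochberg adjustment over all features tested, and the scale set was a fixed block. The scripts were tested on simulated data. The rule for named genes took all 10 ligands and their probe sets, Klf13, the passing members of each pathway list (at most 4 per direction) or, failing these, the one of smallest p, and the 5 genes most and 3 least like Ccl5. The pathway lists were other chemokine ligands, chemokine receptors and Ccl5 regulators, and the marker lists were T cell, CD4, CD8, B cell, myeloid and dendritic cell, NK cell, basophil and mast cell, and stromal and endothelial cell genes. Over all arrays no gene of any marker list passed, and the list medians ran from -0.32 (T cell) to 0.20 (basophil and mast cell). Members and lists were chosen with earlier results of these data known. Alternatives were quantile normalization, median subtraction, other summaries of probe sets, other filters, trend and robust variances, blocks by table or by replicate number, and omission of single arrays.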

Additional observations from a re-analysis of the deposited data

Results flagged for a closer look

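Ccl5 differed in opposite directions in the 2 tables, by -0.638 in the exon-level table and by 0.504 in the gene-level table, with every knockout array on the same side of the wild-type arrays of its scale set within each table. The interaction that tests this difference gave an adjusted limma p of 0.872. With quantile normalization within each table the exon-level value of Ccl5 was -0.482.

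A sample far from the others of its genotype, after the mean of its scale set was subtracted, was found in 2 of 22 groups of 5 arrays (the 10 ligands and Klf13 in each genotype). One was Ccl22 in WT4, at 0.192. The other was Cxcl10 in KO4, at -0.136, below the other knockout arrays. The criterion was Dixon's 95% critical value of 0.71, which chance passes in about 1 in 20 groups.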

How the results depend on the processing

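Over all arrays 0 ligands passed under each of the 22 alternatives run, and the differences of Ccl3, Ccl4, Ccl17, Xcl1, Cxcl10 and Cxcl16 kept their sign in each of the 20 or 21 that gave them a value. When each array was left out in turn, Ccl5 over all arrays ranged from -0.31 to 0.060 and its mean over scale sets from -0.37 to 0.060, with the positive value without KO1 or WT1. In the gene-level table Ccl5 ranged from 0.44 to 0.57, and it passed with quantile normalization within each table (0.54, adjusted p = 0.0429), within each scale set (0.54, adjusted p = 0.0428) and with trend and robust variances (0.50, adjusted p = 0.0254), each time as the 1 ligand called. The count of ligands called ranged from 0 to 1 in the gene-level table, 0 to 2 in the exon-level table and 0 to 1 for the interaction, highest without KO3 in the last 2. The test of the other ligands against Ccl5, run in the gene-level table alone after the data had been seen, gave 5. Ccl1 and Ccl9 over all arrays turned to 0.022 and 0.044 with quantile normalization within each table, 0.021 and 0.038 within each scale set, 0.0080 and 0.010 after median subtraction, 0.10 and 0.013 with the median of probe sets, and 0.15 and 0.062 with that median and quantile normalization. They ranged from -0.072 to 0.050 and from -0.075 to 0.040 with an array left out. Ccl3 in the gene-level table ranged from -0.66 to 0.065. Whole-fit counts moved from 73 genes to 4 with the table as block, where the standard error of Klf13 was 0.35 (adjusted p = 0.9998), and from 12 (without KO4) to 362 (without KO3). The replicate number as block called 1 ligand, Xcl1 in the gene-level table (0.61, adjusted p = 0.0101), where it called 5.29% of all genes in place of 2.72%. Deviations of same-numbered arrays correlated at -0.42 in replicates 2 and 3 and -0.24 in replicates 4 and 5, and at 0.39, 0.32 and -0.30 for exon-level replicates 1, 2 and 3 after median subtraction. Not every pair was above 0.1, so the samples were taken to share only a number. The causes of these changes were not tested.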
